A study of Mus musculus with 9 samples.

Results

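Colony-stimulating factors and their receptors were examined in mouse peritoneal macrophages as a set of 7 genes: the ligand gene Csf1 and the receptor genes Csf1r, Csf2ra, Csf2rb, Csf2rb2, Csf3r and Il3ra. The genes were taken by symbol. All 7 were found among the 55401 gene identifiers of the count table, and all 7 were among the 13501 genes with enough reads to be tested. The set was put together with earlier results of these data known.

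The study measured polyA RNA of peritoneal macrophages elicited with thioglycollate, an irritant broth that draws monocytes into the peritoneal cavity, and collected after brief adherence in culture with no further agent named. There were 3 groups of 3 libraries. SE macrophages came from mice of genotype Stat6S807E/S807E, in which serine 807 of the transcription factor STAT6 is glutamate on both alleles (S807E), a residue often used to mimic a phosphorylated serine. SA macrophages came from Stat6S807A/S807A mice, in which that serine is alanine (S807A), which cannot be phosphorylated. WT macrophages came from wild-type mice. The series title names STAT6 phosphorylated at serine 807 and macrophage senescence as its subject. The labels give no age or sex of the mice and do not say whether the 3 libraries of a group came from separate animals, so the p-values below measure only the spread between these libraries, which may be technical. Each of the comparisons SA against WT, SE against WT and SE against SA shares a group with both others, so they are not independent of each other.

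M-CSF, encoded by Csf1, acts through the receptor tyrosine kinase CSF1R and is the main survival and growth signal of macrophages. GM-CSF and IL-3 act through receptors of another build: an alpha chain that gives specificity, CSF2RA for GM-CSF and IL3RA for IL-3, joined to a signalling beta chain that activates JAK2 and STAT5. The mouse has a beta common chain, CSF2RB, shared by the GM-CSF, IL-3 and IL-5 receptors, and an additional one, CSF2RB2, which serves the IL-3 receptor. CSF3R binds G-CSF and is best known from neutrophils. STAT6 itself is activated by IL-4 and IL-13, not by these factors.

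The beta chain genes carry the differences described here, and their sequences bear on how reads can be assigned to each. In mm10 coordinates, Csf2rb2 (ENSMUSG00000071714) spans 78282507 to 78305721 on the minus strand of chromosome 15, and Csf2rb (ENSMUSG00000071713) spans 78325752 to 78353847 on the plus strand. They stand head to head with their starts 20031 bases apart. Of the 2628 coding positions that align without a gap, 2503 were identical (95.24%), over coding sequences of 2688 bases in transcript Csf2rb-206 and 2634 bases in Csf2rb2-201 of GENCODE M21. The longest identical run was 242 bases. The stretch of 100 bases in which they differ most is shown first, read 5′ to 3′ along each coding strand, with the 17 bases that differ in capitals. It covers coding positions 314 to 413 of Csf2rb and 317 to 416 of Csf2rb2, counted from 1 at the A of the start codon.
Csf2rb: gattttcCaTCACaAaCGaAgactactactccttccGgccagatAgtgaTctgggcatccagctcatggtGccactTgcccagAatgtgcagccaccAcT
Csf2rb2: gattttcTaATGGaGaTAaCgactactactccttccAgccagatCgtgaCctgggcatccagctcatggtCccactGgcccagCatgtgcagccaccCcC
Even here most bases are shared. Of all coding stretches of 50 bases, 26.18% of those in Csf2rb and 26.58% of those in Csf2rb2 occurred unchanged in the other gene, and at 100 bases the shares were 11.05% and 11.28%. How reads fitting both genes were counted is not given in the sources used here. The split of reads between Csf2rb and Csf2rb2 is therefore uncertain, and their summed count is given beside the single values. If such reads were left out, the levels of both genes are too low when set against those of other genes.

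Promoters of 5 of the 7 members could be read from RefSeq on build GRCm38.p6, those of Csf1, Csf2ra, Csf2rb2, Csf3r and Il3ra. The 250 bases before the start are shown for Csf2rb2, whose RNA differed between the mutants, and for Csf2ra, the GM-CSF receptor alpha chain, whose RNA was not called different. Both lie on the minus strand, Csf2rb2 at chr15:78305722-78305971 and Csf2ra at chr19:61228419-61228668, and are written 5′ to 3′ with motif matches in capitals.
Csf2rb2: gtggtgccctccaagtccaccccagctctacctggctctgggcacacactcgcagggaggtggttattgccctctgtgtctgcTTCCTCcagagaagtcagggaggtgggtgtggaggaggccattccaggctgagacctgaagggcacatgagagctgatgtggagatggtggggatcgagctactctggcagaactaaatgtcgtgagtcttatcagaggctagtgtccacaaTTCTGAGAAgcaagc
Csf2ra: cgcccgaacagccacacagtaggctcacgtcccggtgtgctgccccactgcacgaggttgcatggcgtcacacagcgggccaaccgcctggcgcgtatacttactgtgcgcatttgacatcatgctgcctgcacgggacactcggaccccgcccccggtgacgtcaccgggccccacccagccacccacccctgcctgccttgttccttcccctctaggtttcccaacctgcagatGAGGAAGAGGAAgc
The motifs searched on both strands from 250 bases before the start to 50 after it were TTC and GAA with 4 bases between, the spacing preferred by STAT6; TTCNNNGAA, the spacing preferred by STAT5; GAGGAA, the core bound by the macrophage factor PU.1; and TTGCNNAA, a form bound by C/EBP factors. In Csf2rb2, TTCTGAGAA matched TTCNNNGAA at -15, and GAGGAA was found on the opposite strand at -167 and at 30, past the stretch printed. In Csf2ra, GAGGAA was found at -14 and again at -8, directly joined. Csf3r had GAGGAA at -86, Il3ra had TTGCTCAA at -134, and Csf1 had none of these motifs in its window. TTC and GAA with 4 bases between were in none of the 5 windows. Among all 32817 promoters of that length in the table, TTCNNNGAA occurred in 8.294%, GAGGAA in 28.27%, TTGCNNAA in 10.81% and TTC and GAA with 4 bases between in 6.945%. These matches describe letters and are no evidence of binding.

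Libraries held between 17286617 and 24618608 counted reads. Expression levels are given as CPM, the count of a gene scaled to a common library size, adjusted by the trimmed mean of M values (TMM). Stat6 RNA was present in every library, with 291, 284 and 312 CPM in SE, 195, 200 and 200 CPM in SA, and 198, 201 and 187 CPM in WT. It was higher in SE than in WT (log2 fold change 0.60 with a standard error of 0.06, adjusted p = 6.27e-06, edgeR), a difference whose source was not tested. The error after ± is the standard error for every fold change below and the SD for every mean. The macrophage genes Adgre1, Cd68 and Lyz2 were at 1525.5 CPM or more in each library, as for the labelled cell type, while Ly6g and Retnlg of neutrophils were listed at 0. SE replicate 3 and WT replicate 2 stood apart from the others of their groups on the third principal component, which held 14.6% of the variance, with scores of -17.09 and -16.24. SE replicate 2 and WT replicate 1 stood at its other end, with scores of 14.85 and 13.29. In bulk RNA, fewer cells of a type and less RNA per cell cannot be told apart.

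Compared per kilobase of exon, the members formed a steep order in every group. Exon length was that of all annotated transcripts merged, 7.277 kb for Csf2rb and 2.871 kb for Csf2ra, and the order depends on it. In CPM without that division, Csf2rb stood above Csf2ra in every group, with WT means of 1949.5 and 935.9 CPM. Csf1r was highest, at 872 ± 56.4 CPM per kb in SE, 865 ± 23.0 in SA and 922 ± 62.9 in WT (SD, n = 3 each), which placed it 29th of 13489 genes in SE and 25th in SA and in WT. Csf2ra followed with 383 ± 31.3 CPM per kb in SE, 344 ± 45.6 in SA and 326 ± 58.7 in WT. The beta chains came next: Csf2rb at 293 ± 19.9 in SE, 216 ± 5.67 in SA and 268 ± 14.0 in WT, and Csf2rb2 at 283 ± 16.9 in SE, 222 ± 3.73 in SA and 258 ± 9.66 CPM per kb in WT. In SE and in SA the lowest Csf2ra library lay above the highest library of either beta chain. In WT, Csf2ra lay above every Csf2rb2 library but overlapped Csf2rb. There the lowest Csf2ra library had 280.7 CPM per kb and the highest Csf2rb library 282.1. The levels of Csf2rb and Csf2rb2 overlapped in every group. Csf3r, at 49.0 to 54.5 CPM per kb on average, and Il3ra, at 22.4 to 26.7, stood well apart from these and from each other. Csf1 was lowest, at 0.776 ± 0.123 in SE, 0.918 ± 0.0657 in SA and 0.592 ± 0.130 CPM per kb in WT.

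**Figure D1:**
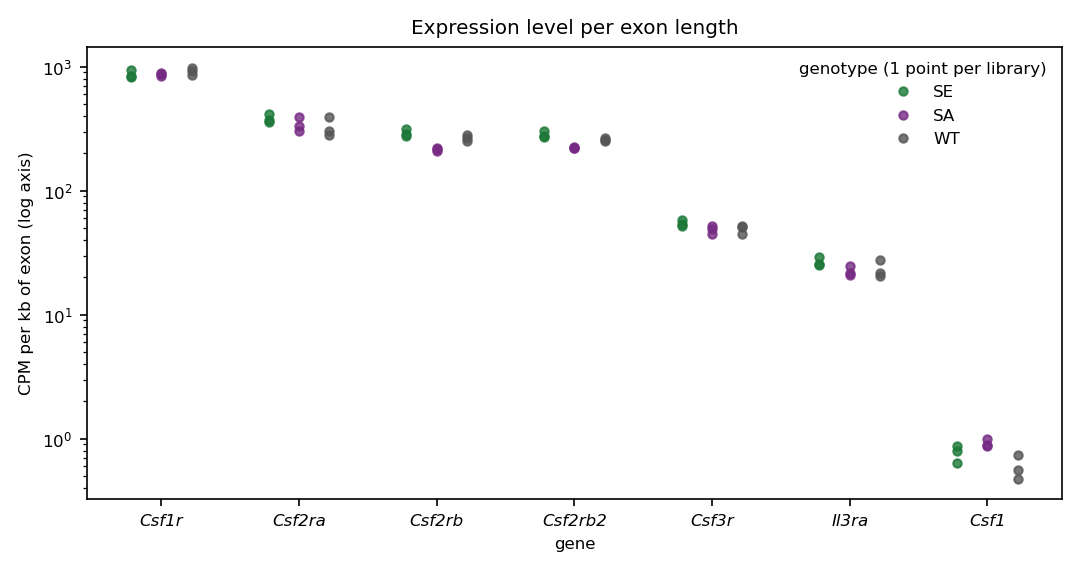
Levels of the 7 members in CPM per kilobase of exon on a log axis, with a point for each library and SE, SA and WT left to right for each gene. Csf1r lies between 831 and 985 CPM per kb in all libraries, the GM-CSF and IL-3 receptor chains Csf2ra, Csf2rb and Csf2rb2 between 209 and 418, and Csf1 under 1.

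The beta chains were the members that passed the test: they were lower in SA than in WT and higher in SE than in SA. In SA against WT, 2 of the 7 members were called at an adjusted p under 0.05 by edgeR, Csf2rb and Csf2rb2, both lower, where 4.07% of all tested genes were called, 1.97% higher and 2.1% lower. In SE against WT none of the 7 was called, where 5.04% of all tested genes were, 2.35% higher and 2.69% lower. With the edgeR p-values left unadjusted, 1 member passed 0.05 (Csf2rb2), as did 2467 of the 13501 tested genes, and DESeq2 called 0 of the 7 after adjustment and 766 genes in all. In SE against SA the same Csf2rb and Csf2rb2 were called, both higher, where 10.2% of all tested genes were called, 4.77% higher and 5.42% lower. The groups did not overlap for 3 members in SA against WT (Csf1, Csf2rb and Csf2rb2; 19.3% of all genes), for 2 in SE against WT (Csf2rb2 and Csf3r; 20.5%) and for 3 in SE against SA (Csf2rb, Csf2rb2 and Il3ra; 28.3%). Leaving out SA replicate 1 left 0 members called in SA against WT, and leaving out WT replicate 2 gave 2 called in SE against WT (Csf2ra and Il3ra). The median log2 fold change over all tested genes was 0.0014 in SA against WT, -0.0033 in SE against WT and -0.0031 in SE against SA.

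**Figure D2:**
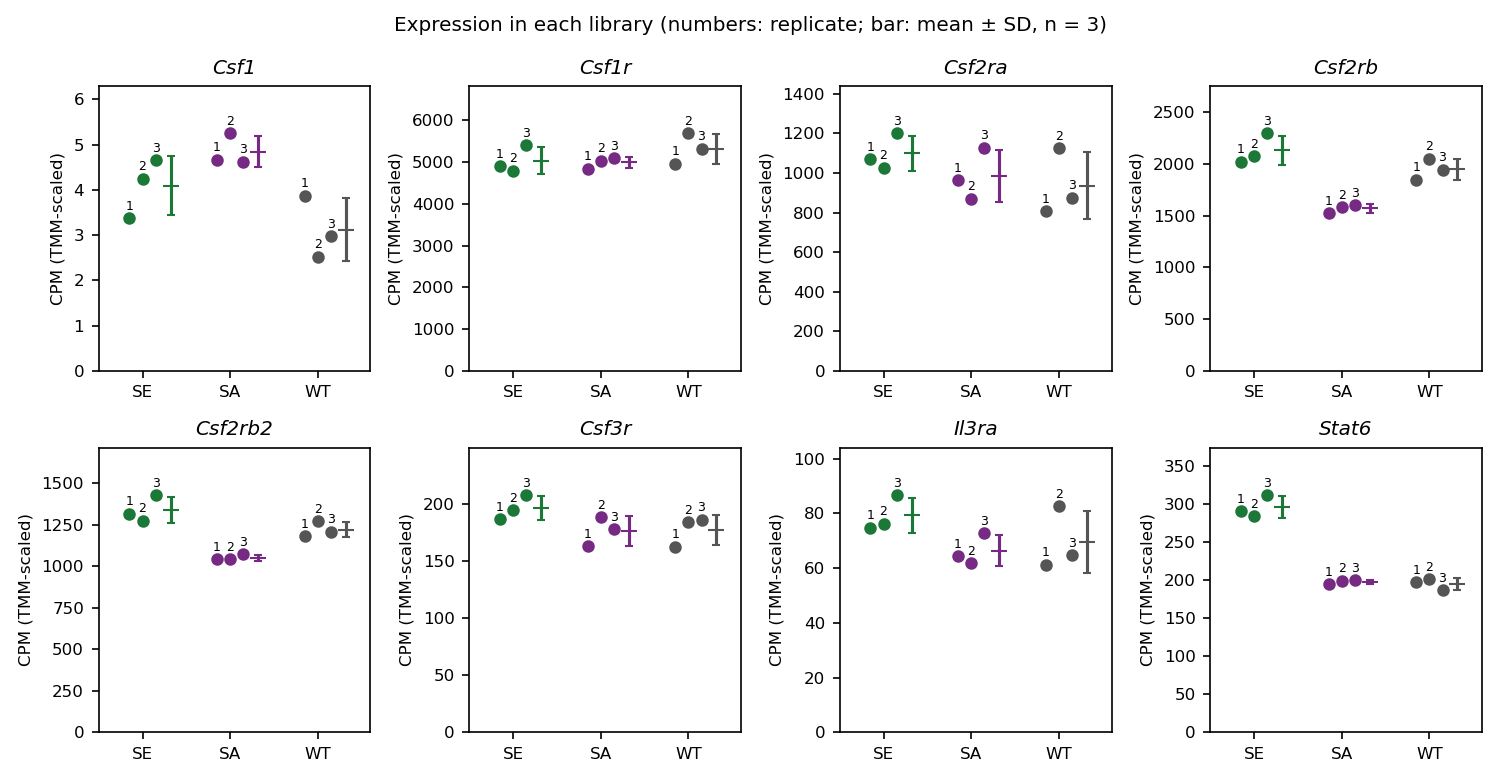
TMM-scaled CPM of each member and of Stat6 in each library, with SE, SA and WT left to right in each panel, points numbered by replicate and a bar for the mean ± SD (n = 3); each panel has its own axis from 0. Csf2rb and Csf2rb2 show all 3 SA libraries under every SE and WT library, at 1524 to 1604 and 1042 to 1072 CPM.

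The ligand gene Csf1 (chromosome 3, 107741048 to 107760469, minus strand) was expressed at a low level. It had 3.38, 4.25 and 4.66 CPM in SE, 4.67, 5.25 and 4.63 CPM in SA, and 3.87, 2.52 and 2.98 CPM in WT, from 43 to 106 reads in a library. The SA libraries all lay above the WT libraries, and SE overlapped both. The difference of SA from WT was 0.61 ± 0.17 on the log2 scale and missed the threshold (adjusted p = 0.0623, edgeR). It was called without WT replicate 1 (adjusted p = 0.0186), whose Csf1 was the highest of WT, without SE replicate 3 (0.0456), without WT replicate 1 and SE replicate 2 together (0.0249) and with no filter on low counts (0.0191), and over all alternatives its adjusted p ran between 0.0186 and 0.227. SE differed from WT by 0.36 ± 0.18 (adjusted p = 0.299) and from SA by -0.25 ± 0.17 (adjusted p = 0.427, edgeR). Collagen genes that mark fibroblasts moved alongside. Col1a1 had 4.07, 3.49 and 4.97 CPM in SE, 18.5, 20.3 and 18.9 CPM in SA, and 1.198, 1.29 and 1.68 CPM in WT. Of 15 mesothelial and fibroblast markers, 5 rose in SA against WT, namely Col1a1, Col1a2, Col3a1, Sparc and Bgn. Pdpn and Gsn were not called there, and the others had too few reads to be tested. Among all tested genes, 1.97% were called higher in SA against WT. The summed level of the 15 markers was 730 to 828 CPM in SE, 883 to 935 in SA and 764 to 823 in WT. Most of it came from Gsn, which macrophages also express. Msln, Upk3b, Wt1, Krt19, Krt8 and Lum had 3 reads or fewer in every library. Dcn, untested, had 1, 0 and 2 reads in SE, 10, 5 and 10 in SA, and 0, 1 and 1 in WT. Pdgfra, also untested, had 1, 1 and 0 reads in SE, 5, 4 and 6 in SA, and 1, 0 and 1 in WT. The part of such cells in the Csf1 values was not tested.

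Csf1r, the receptor for M-CSF and IL-34 (chromosome 18, 61100598 to 61132149, plus strand), showed no detectable difference between the genotypes. It had 4900, 4799 and 5407 CPM in SE, 4846, 5041 and 5100 CPM in SA, and 4962, 5688 and 5323 CPM in WT. All 3 groups overlapped. The log2 differences were -0.09 ± 0.07 for SA against WT (adjusted p = 0.641), -0.08 ± 0.07 for SE against WT (adjusted p = 0.569) and 0.01 ± 0.07 for SE against SA (adjusted p = 0.948, edgeR), and a difference of the size of these standard errors could not be told from 0 at this spread. Its exons share 873 bases with those of Hmgxb3 on the opposite strand, and the strand setting of the counting is not given in the sources used here. Hmgxb3 had 507 to 757 reads in a library against 82481 to 124203 for Csf1r.

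Csf2rb, the beta common chain, was lower in SA than in WT and higher in SE than in SA. It had 2021, 2075 and 2295 CPM in SE, 1524, 1582 and 1604 CPM in SA, and 1849, 2053 and 1946 CPM in WT. Each SA library lay under every SE and every WT library, and SE and WT overlapped. The means were 2130 ± 145 CPM in SE, 1570 ± 41.3 in SA and 1949 ± 102 in WT (SD, n = 3 each). Csf2rb fell 1.24-fold in SA against WT (log2 fold change -0.31 ± 0.06, adjusted p = 0.0063, edgeR). This call was lost without SA replicate 1 (adjusted p = 0.0617) and held in the other 16 of 17 alternatives. Csf2rb was 1.36-fold higher in SE than in SA (0.44 ± 0.06, adjusted p = 0.000195, edgeR), a call that held in all 17 alternatives, with a highest adjusted p of 0.00365. SE against WT gave 0.13 ± 0.06 and did not pass (adjusted p = 0.292, edgeR).

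Csf2rb2, the additional beta chain of the mouse IL-3 receptor, followed the same order, with smaller differences of SA from WT and of SE from SA. It had 1317, 1276 and 1430 CPM in SE, 1042, 1042 and 1072 CPM in SA, and 1184, 1273 and 1209 CPM in WT. The SA libraries were the lowest and the SE libraries the highest, with no overlap between any groups, although SE replicate 2 and WT replicate 2 nearly met. The means were 1341 ± 79.9 CPM in SE, 1052 ± 17.7 in SA and 1222 ± 45.8 in WT (SD, n = 3 each). In SA against WT it fell 1.16-fold (log2 fold change -0.22 ± 0.06, adjusted p = 0.0467, edgeR), close to the threshold. That call was lost in 6 of the 9 fits that left out 1 library, namely WT replicate 2 or 3, any SA replicate or SE replicate 1, with a highest adjusted p of 0.205. In SE it was 1.27-fold higher than in SA (0.35 ± 0.06, adjusted p = 0.00085, edgeR), in all 17 alternatives, with a highest adjusted p of 0.00926. SE against WT gave 0.13 ± 0.06 (adjusted p = 0.223, edgeR).

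Counted as 1 feature, the beta chain reads gave a log2 fold change of -0.27 ± 0.06 in SA against WT (adjusted p = 0.0144, edgeR). They gave 0.13 ± 0.06 in SE against WT (adjusted p = 0.268) and 0.40 ± 0.06 in SE against SA (adjusted p = 0.00036, edgeR). The division of counted reads between the copies does not enter this sum, which would lack any reads left out for fitting both. The sum was fitted with all libraries only. Csf2rb2 shares of this sum were 39.45%, 38.08% and 38.39% in SE, 40.6%, 39.7% and 40.06% in SA, and 39.03%, 38.27% and 38.31% in WT. Each SA share lay above every SE and WT share. The 95% Wilson intervals of single libraries were at most 0.845 points wide and cover counting error only; across groups, those of SA replicates 2 and 3 overlapped that of SE replicate 1, and that of SA replicate 2 overlapped that of WT replicate 1.

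Csf2ra, the alpha chain of the GM-CSF receptor (chromosome 19, 61223957 to 61228429, minus strand), did not pass in any comparison. It had 1070.2, 1027 and 1200 CPM in SE, 962, 869.9 and 1128 CPM in SA, and 806, 1126 and 875 CPM in WT. All 3 groups overlapped, and the highest libraries were SE replicate 3, SA replicate 3 and WT replicate 2. The log2 differences were 0.08 ± 0.12 for SA against WT (adjusted p = 0.875), 0.23 ± 0.12 for SE against WT (adjusted p = 0.317) and 0.16 ± 0.12 for SE against SA (adjusted p = 0.475, edgeR). Without WT replicate 2, the SE value was 0.39 above WT and passed (adjusted p = 0.0162). Those 3 libraries also had the lowest scores of their groups on the third principal component, -17.09 for SE, -8.055 for SA and -16.24 for WT. As a description, the summed beta chains per kilobase divided by Csf2ra per kilobase gave ratios of 1.491, 1.549 and 1.476 in SE, 1.281, 1.443 and 1.137 in SA, and 1.795, 1.403 and 1.713 in WT. The SA ratios lay under all SE ratios and overlapped those of WT through WT replicate 2. The size of these ratios would be too low if reads fitting both beta chains were left out of the counts.

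Il3ra, the IL-3 receptor alpha chain (chromosome 14, 14346275 to 14356011, plus strand), was expressed at a lower level. It had 74.8, 76.2 and 86.7 CPM in SE, 64.5, 61.9 and 72.7 CPM in SA, and 61.3, 82.6 and 64.8 CPM in WT. The SE libraries all lay above the SA libraries, while WT spanned both through replicate 2. The difference of SE from SA was 0.26 ± 0.10 and missed the threshold (adjusted p = 0.121, edgeR); it was called with no filter on low counts (adjusted p = 0.0129), in a fit of those groups alone (0.035) and without WT replicate 2 (0.0229). SE differed from WT by 0.19 ± 0.10 (adjusted p = 0.321) and SA from WT by -0.06 ± 0.10 (adjusted p = 0.877, edgeR). Without WT replicate 2 the SE value stood 0.33 above WT and passed (adjusted p = 0.0162), and the SA value turned to 0.07. Its exons share 46 bases with the antisense gene Gm48860. Mast cells and basophils carry this chain, and 8 of their 11 markers had 3 reads or fewer in every library, with a summed level of 1.31 to 1.52 CPM in SE, 1.07 to 1.39 in SA and 1.17 to 1.72 in WT.

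Csf3r, the G-CSF receptor (chromosome 4, 126024550 to 126044440, plus strand), had 187, 195 and 208 CPM in SE, 163, 189 and 178 CPM in SA, and 163, 184 and 187 CPM in WT. The SE libraries lay just above the WT libraries and overlapped those of SA. None of the differences passed: -0.01 ± 0.07 for SA against WT (adjusted p = 0.984), 0.15 ± 0.07 for SE against WT (adjusted p = 0.285) and 0.15 ± 0.07 for SE against SA (adjusted p = 0.199, edgeR). The 14 neutrophil markers summed to 46.4 to 48.3 CPM in SE, 38.5 to 41.5 in SA and 56.0 to 63.2 in WT, almost all from Mmp8. Of these, 6 had 3 reads or fewer everywhere, and S100a8 did not exceed 0.919 CPM. S100a9 was at 0.441 to 0.931 CPM in SE, 0.132 to 0.308 in SA and 0.233 to 0.479 in WT. The part of neutrophils in the Csf3r values was not tested.

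**Figure D3:**
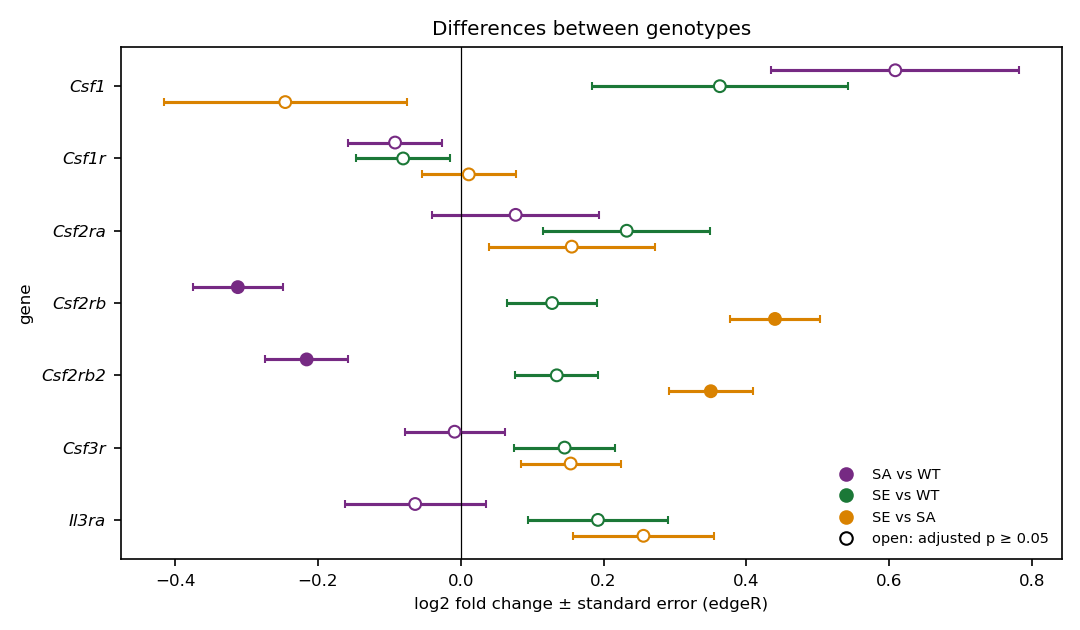
Log2 fold changes of the 7 members with standard errors in the 3 comparisons, SA vs WT, SE vs WT and SE vs SA, with filled symbols for genes called at an adjusted p under 0.05. Csf2rb and Csf2rb2 lie at -0.31 and -0.22 in SA vs WT and at 0.44 and 0.35 in SE vs SA; all other members are open symbols.

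Of the ligands and receptors related to these genes, most were at or near 0 at this depth. Csf2 (GM-CSF) and Il3 had no read in any library, a count that allows at most 3 reads, or 0.12 to 0.176 CPM. Csf3 (G-CSF) had at most 2 reads, Il5, Il34 and Il5ra at most 1, and the receptors Kit and Flt3 at most 5. The tested relatives were Kitl (stem cell factor), at 9.53 to 11.8 CPM in SE, 9.71 to 10.6 in SA and 10.2 to 15.5 in WT, and Flt3l (FLT3 ligand), at 4.48 to 6.67 CPM in SE, 5.55 to 5.99 in SA and 3.87 to 4.67 in WT. Neither was called in any comparison.

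The genes that GM-CSF is known to raise in macrophages included called members in every comparison. Of 18 tested, 2 rose and 5 fell in SA against WT (median log2 fold change -0.13), 4 rose and 1 fell in SE against WT (median 0.077), and 7 rose and 3 fell in SE against SA (median 0.18). Of all tested genes, 4.07%, 5.04% and 10.2% were called in these comparisons. The SE against WT count of the list dropped to 3 called genes without WT replicate 1, SE replicate 1 or SE replicate 2. Chil3, a chitinase-like protein, had 107, 126 and 134 CPM in SE, 16.4, 22.3 and 19.6 CPM in SA, and 27.0, 28.6 and 35.1 CPM in WT, with no overlap between any groups. It rose in SE against WT (2.02 ± 0.11, adjusted p = 3.17e-08) and against SA (2.66 ± 0.12, adjusted p = 1.88e-09), and fell in SA against WT (-0.64 ± 0.12, adjusted p = 0.00429, edgeR), a call lost without WT replicate 2 and SE replicate 3 together (adjusted p = 0.0608). Ear2, a ribonuclease, had 5.29, 6.17 and 5.39 CPM in SE, 2.78, 2.14 and 2.06 CPM in SA, and 4.91, 5.99 and 6.47 CPM in WT. It fell in SA against WT (-1.30 ± 0.17, adjusted p = 0.000104) and rose in SE against SA (1.26 ± 0.17, adjusted p = 0.000116, edgeR). Both genes have close paralogs, so their counts may hold reads of those. Genes of this list can also answer to other signals, as Chil3 and Mgl2 (below) do to IL-4. The parts of GM-CSF and of the STAT6 change in these values were not tested.

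Other genes of that list went against this order. Mgl2, a lectin also raised by IL-4, had 29.1, 27.4 and 23.8 CPM in SE, 28.1, 27.4 and 26.5 CPM in SA, and 13.0, 13.6 and 13.4 CPM in WT. It rose in both mutants against WT, by 1.01 ± 0.09 in SE and 1.04 ± 0.09 in SA (adjusted p = 1.98e-06 and 1.18e-06, edgeR). Cd86, a costimulatory ligand, rose in SA against WT (0.81 ± 0.15, adjusted p = 0.00341) and fell in SE against SA (-0.89 ± 0.15, adjusted p = 0.00114, edgeR), and the scavenger receptor gene Marco fell in SE against WT (-1.05 ± 0.25, adjusted p = 0.0173) and against SA (-0.90 ± 0.25, adjusted p = 0.0282, edgeR). Marco was at 0.931 to 1.41 CPM in SE, 1.73 to 2.31 in SA and 1.82 to 2.64 in WT, and its calls were lost without WT replicate 1, SE replicate 1 or 2 against WT (adjusted p up to 0.156), and without SA replicate 1 or 3 or SE replicate 1 or 2 against SA (up to 0.138). Chosen after their values were seen, the fatty acid binding protein gene Fabp4 and the integrin gene Itgax (CD11c) were also lowest in SA. Fabp4 had 59.9, 63.5 and 57.9 CPM in SE, 39.9, 44.7 and 40.2 CPM in SA, and 57.9, 56.2 and 57.6 CPM in WT. Itgax had 1295, 1287 and 1344 CPM in SE, 1012, 954 and 1018 CPM in SA, and 1164, 1186 and 1151 CPM in WT.

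Among 18 genes of the beta chain's JAK2 and STAT5 signalling, 1 rose and 1 fell in SA against WT (median log2 fold change -0.0019), 5 rose and none fell in SE against WT (median 0.047), and 4 rose and 1 fell in SE against SA (median 0.075). Cish, a feedback inhibitor of cytokine receptors, had 22.7, 21.3 and 27.5 CPM in SE, 8.11, 8.10 and 9.66 CPM in SA, and 8.27, 7.40 and 9.77 CPM in WT, with SE apart from both other groups. It rose by 1.48 ± 0.12 in SE against WT (adjusted p = 1.45e-06) and by 1.47 ± 0.12 against SA (adjusted p = 7.55e-07, edgeR). Socs1, another such inhibitor, rose by 0.74 ± 0.08 in SE against WT (adjusted p = 2.45e-05, edgeR). Cish and Socs1 were not called in SA against WT (0.02 ± 0.13 and -0.03 ± 0.08). Csf2rb and Csf2rb2 each stood 0.13 ± 0.06 above WT in SE, not called, and were called lower in SA. Which signal Cish and Socs1 follow was not tested. Id1, an inhibitor of helix-loop-helix factors, rose by 0.79 ± 0.12 in SE against SA (adjusted p = 0.000298, edgeR). In SA against WT the fallen gene was Osm, an IL-6 family cytokine (-0.48 ± 0.11, adjusted p = 0.0165, edgeR), a call lost without WT replicate 3 or SA replicate 1 or 2 (adjusted p up to 0.0898). The risen one was Ccnd2, cyclin D2, which had 6, 3 and 4 reads in SE, 24, 13 and 15 reads in SA, and 1, 2 and 3 reads in WT, too few for a fold; it was lower in SE than in SA (adjusted p = 0.00955, edgeR), a call lost without SA replicate 1 (0.063). Without WT replicate 3 or SA replicate 1, 1 gene of the list was called in SA against WT. The shares called over all tested genes were 4.07% in SA against WT, 5.04% in SE against WT and 10.2% in SE against SA.

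Downstream of CSF1R, 32 adaptor, kinase and phosphatase genes were tested. In SA against WT, 1 rose and none fell (median log2 fold change 0.0033). In SE against WT 2 rose and 1 fell (median -0.057), and in SE against SA 2 rose and 7 fell (median -0.057). Calls over all tested genes stood at 4.07%, 5.04% and 10.2% in these comparisons. Called genes numbered 3 in SA against WT without WT replicate 2 and 2 without SE replicate 3; in SE against WT they numbered 1 without WT replicate 3 and 5 without SE replicate 3. Dok2, an adaptor that restrains kinase signalling, had 101, 93.3 and 93.5 CPM in SE, 131, 129 and 121 CPM in SA, and 97.3, 97.7 and 95.5 CPM in WT. It rose in SA against WT (0.39 ± 0.06, adjusted p = 0.000454) and fell in SE against SA (-0.41 ± 0.06, adjusted p = 0.000218, edgeR). The Src family kinase gene Fgr fell in SE against WT (-0.37 ± 0.09, adjusted p = 0.0251) and against SA (-0.64 ± 0.09, adjusted p = 0.000172), while Src itself rose in SE against WT (0.43 ± 0.09, adjusted p = 0.00942) and against SA (0.48 ± 0.09, adjusted p = 0.00249, edgeR). Against WT, Fgr lost its call without WT replicate 3 or SE replicate 1 or 2 (adjusted p up to 0.13) and Src without WT replicate 3 (up to 0.081). Cblb, a ubiquitin ligase that turns off receptors, rose in SE by 0.35 ± 0.06 against WT (adjusted p = 0.0012) and by 0.38 ± 0.06 against SA (adjusted p = 0.00025, edgeR).

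Transcription factors linked to the Csf1r gene, with the proteases that can shed the receptor, made a list of 18 tested genes. Of these, 2 rose and 3 fell in SA against WT (median log2 fold change 0.012), 3 rose and 1 fell in SE against WT (median 0.039), and 6 rose and 4 fell in SE against SA (median 0.061), while Csf1r RNA was not called. Among all tested genes, 4.07%, 5.04% and 10.2% were called in these comparisons. Called genes of the list dropped to 2 in SA against WT without WT replicate 3 and to 3 without any 1 SA replicate. In SE against WT they dropped to 2 and 1 without WT replicate 1 and 3. In SE against SA they dropped to 5 without SA replicate 1 or SE replicate 1. The myeloid factor gene Cebpa had 542, 515 and 559 CPM in SE, 401, 413 and 414 CPM in SA, and 503, 540.2 and 490 CPM in WT. Its SA libraries were below all others. It fell in SA against WT (-0.32 ± 0.06, adjusted p = 0.0023) and rose in SE against SA (0.40 ± 0.06, adjusted p = 0.000221, edgeR). Maf, a factor that restrains macrophage renewal, ran the other way, with 56.5, 57.8 and 51.2 CPM in SE, 92.5, 103 and 101 CPM in SA, and 86.2, 78.8 and 78.1 CPM in WT. It rose in SA against WT (0.28 ± 0.07, adjusted p = 0.024), and fell in SE against WT (-0.56 ± 0.07, adjusted p = 0.000132) and against SA (-0.84 ± 0.07, adjusted p = 7.55e-07, edgeR). Its rise in SA was lost without WT replicate 3 or SA replicate 2 or 3 (adjusted p up to 0.148).

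Other called genes of this list had smaller or less stable differences. Cebpb, a factor related to Cebpa, fell in SA against WT (-0.31 ± 0.06, adjusted p = 0.00665, edgeR), a call lost without SA replicate 3 (0.0542). Ets2 rose in SA against WT (0.36 ± 0.09, adjusted p = 0.0378, edgeR), lost without WT replicate 2 or 3, SA replicate 1 or 2, or SE replicate 1 or 2 (up to 0.266). Runx3 had 6.08, 6.75 and 7.38 CPM in SE and 3.83, 4.93 and 4.65 CPM in WT, so that SE lay above WT without overlap. It rose in SE against WT (0.60 ± 0.15, adjusted p = 0.0223, edgeR), lost without WT replicate 1 or 3 or SE replicate 2 or 3 (up to 0.186). Egr2 rose in SE against WT (0.28 ± 0.05, adjusted p = 0.00594, edgeR), lost without WT replicate 3 (0.0544). The AP-1 subunit genes Jun and Fos went opposite ways in SE against SA: Jun rose (0.40 ± 0.05, adjusted p = 0.000148) and Fos fell (-0.31 ± 0.08, adjusted p = 0.0257, edgeR), the Fos call being lost without SA replicate 1 or 3 or SE replicate 1 or 2 (up to 0.158).

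Genes that depend on CSF1 in macrophages moved in both directions. Of 14 tested of 16, 4 rose and 1 fell in SA against WT (median log2 fold change 0.14), 2 rose and 5 fell in SE against WT (median 0.046), and 3 rose and 5 fell in SE against SA (median -0.077). Over all tested genes, the called shares were 4.07%, 5.04% and 10.2% in these comparisons. Called genes of the list dropped to 3 in SA against WT without WT replicate 3 or SA replicate 1. In SE against WT they dropped to 3 without WT replicate 3 and to 4 without SE replicate 1. Cx3cr1, the fractalkine receptor, had 1.52, 2.27 and 2.04 CPM in SE, 10.1, 6.57 and 8.33 CPM in SA, and 5.03, 4.23 and 4.19 CPM in WT, with no overlap between any groups. It rose in SA against WT (0.89 ± 0.16, adjusted p = 0.00318) and fell in SE against WT (-1.22 ± 0.21, adjusted p = 0.00167) and against SA (-2.11 ± 0.19, adjusted p = 2.12e-06, edgeR). C1qa, a complement chain, rose in SA by 0.56 ± 0.06 (adjusted p = 7.63e-06) and in SE by 0.26 ± 0.06 (adjusted p = 0.0101, edgeR) against WT, the SE call being lost without WT replicate 3 or SE replicate 1 (adjusted p up to 0.0749). The plasminogen activator gene Plau rose in SE against SA (0.39 ± 0.07, adjusted p = 0.00231, edgeR), as did Apoe, a lipid carrier (0.32 ± 0.07, adjusted p = 0.00829, edgeR), whose call was lost without SA replicate 1 (0.069). The scavenger receptor gene Cd163 had 8.43, 6.23 and 7.64 CPM in SE and 13.8, 14.5 and 12.9 CPM in SA, and fell (-0.88 ± 0.12, adjusted p = 0.000101, edgeR). Mrc1, the mannose receptor, rose in SE against WT (0.30 ± 0.06, adjusted p = 0.00507, edgeR). It also rose in SA against WT (0.23 ± 0.06, adjusted p = 0.0295, edgeR), a call lost without any 1 WT or SA replicate (up to 0.136). The chemokine receptor gene Ccr2 fell in SE against WT (-0.60 ± 0.13, adjusted p = 0.00951, edgeR), a call lost without WT replicate 1 or 3 or SE replicate 1 (up to 0.062).

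Survival and death genes of the BCL2 family, through which these factors keep myeloid cells alive, made a list of 25 with 22 tested. Of these, 1 rose and none fell in SA against WT (median log2 fold change 0.0098), 1 rose and 1 fell in SE against WT (median -0.043), and 1 rose and 3 fell in SE against SA (median -0.040), where 4.07%, 5.04% and 10.2% of all tested genes were called in these comparisons. Without WT replicate 2, 2 genes were called in SA against WT and 5 in SE against WT. The pro-death gene Bmf had 13.9, 14.1 and 17.7 CPM in SE, 27.0, 31.8 and 30.2 CPM in SA, and 27.7, 30.2 and 27.3 CPM in WT. It fell in SE against WT (-0.90 ± 0.10, adjusted p = 3.96e-05) and against SA (-0.96 ± 0.10, adjusted p = 9.16e-06, edgeR). The protective gene Bcl2a1b, whose near-identical copies make its counts uncertain, rose in SE against WT (0.51 ± 0.10, adjusted p = 0.00479) and against SA (0.85 ± 0.10, adjusted p = 3.2e-05, edgeR). Bcl2 had 18.9, 19.4 and 16.9 CPM in SE, 21.6, 21.8 and 21.5 CPM in SA, and 15.5, 14.1 and 15.2 CPM in WT, and rose in SA against WT (0.53 ± 0.08, adjusted p = 0.000737, edgeR). Birc3, an inhibitor of apoptosis outside the BCL2 family, fell in SE against SA (-0.42 ± 0.07, adjusted p = 0.00152, edgeR).

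**Figure D4:**
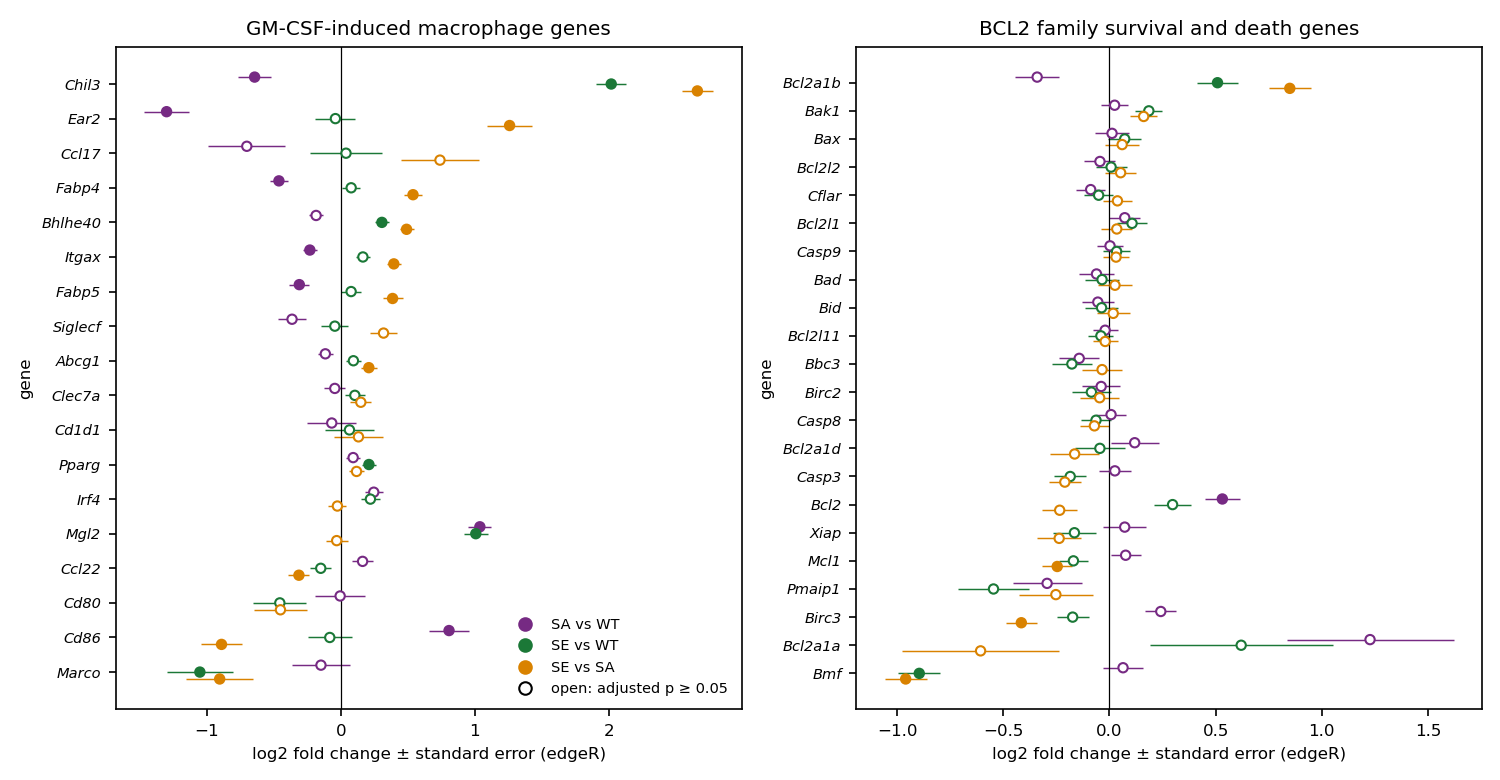
Log2 fold changes with standard errors of the 18 tested GM-CSF-induced genes (left) and the 22 tested survival and death genes (right), for SA vs WT, SE vs WT and SE vs SA, ordered by SE vs SA, with filled points for adjusted p under 0.05. Chil3 and Ear2 lie below 0 in SA vs WT and reach 2.66 and 1.26 in SE vs SA, while Marco, Cd86 and Bmf lie below 0 in SE vs SA.

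The genes whose pattern over the 9 libraries was most like that of a beta chain were found by the root mean square (RMS) difference of log2 CPM, each gene centred on its own mean, among 9132 candidates. For Csf2rb, which itself varied by 0.194 RMS, they were Plin2, a lipid droplet protein (0.043), Inf2, a formin (0.0466), and the receptor gene Gpr157 (0.0477). For Csf2rb2, which varied by 0.152, they were Tlnrd1 (0.0255), Amz1 (0.0342) and Taf10 (0.0385). Plin2 had 954, 934 and 1032 CPM in SE, 716, 683 and 709 CPM in SA, and 799.9, 922 and 858 CPM in WT. Picked for this likeness, these genes share with both beta chains the low SA libraries. They also share the highest values of their groups at SE replicate 3 and WT replicate 2. Both traits follow from how the genes were chosen.

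Neighbours of the beta chain genes on chromosome 15 followed them in part. A window of 150 kb on each side, chosen after values were seen, held 18 genes, of which 7 were tested. Both counts include Csf2rb and Csf2rb2. Ncf4, an NADPH oxidase subunit next to Csf2rb2, had 368, 349.6 and 375 CPM in SE, 367, 355 and 344 CPM in SA, and 349, 351 and 346 CPM in WT, and was not called. Tst, a sulfur transferase gene beyond Csf2rb, had 2.65, 2.15 and 3.51 CPM in SE, 1.45, 1.43 and 1.49 CPM in SA, and 2.76, 2.52 and 2.75 CPM in WT. It fell in SA against WT (-0.88 ± 0.21, adjusted p = 0.0218) and rose in SE against SA (0.93 ± 0.21, adjusted p = 0.0089, edgeR), calls lost without WT replicate 1 or 3 or any SA replicate (adjusted p up to 0.0904) and without SE replicate 3 (0.0538). Kctd17 rose in SE against SA (0.46 ± 0.11, adjusted p = 0.0123, edgeR), a call lost without SA replicate 1 or 3 or SE replicate 3 (up to 0.0598). Ift27 and Mpst were not called. Over all tested genes, 2.1% were called lower in SA against WT and 4.77% higher in SE against SA.

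**Figure D5:**
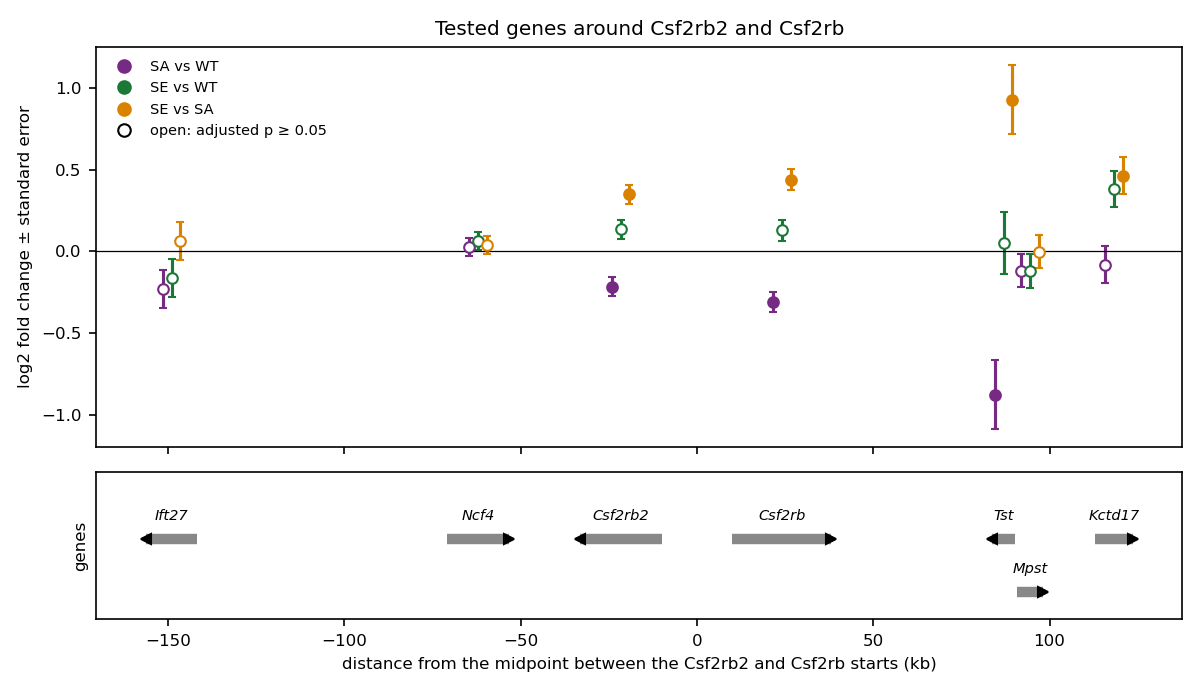
Log2 fold changes with standard errors of the 7 tested genes around Csf2rb2 and Csf2rb against distance in kilobases, for SA vs WT, SE vs WT and SE vs SA, filled where called. Csf2rb2, Csf2rb and Tst lie below 0 in SA vs WT and above 0 in SE vs SA, and Ncf4 stays within 0.1 of 0.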

How the data were processed

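Gene counts deposited by the authors were used as given; per the submitters' processing notes, reads were aligned to mm10 with HISAT2 2.1.0 and counted with featureCounts. The version of the counter, its annotation release, its strand setting and its handling of multi-mapping reads are not stated there. Of 55401 identifiers, 55141 were matched to GENCODE M21, which gave symbols, positions and exon lengths, and 260 were not. All 37 mitochondrial genes were listed at 0.

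The 9 libraries were fitted together in edgeR 4.0.16 (R 4.3.3) with genotype as the only term: TMM scaling, a filter on low counts (minimum count 10, total 15; 13501 genes kept), a robust quasi-likelihood F test with 6 residual degrees of freedom, and Benjamini-Hochberg adjustment over all tested genes, called at 0.05. The common biological coefficient of variation was 6.75%. Errors of fold changes are standard errors. The fit was tested on simulated data. The report names all 7 members and Stat6, for each list and comparison the called genes that changed most (up to 2 in either direction; 1 of them is not reported here), and the 3 genes nearest in pattern to each called member; others are said to be chosen after values were seen. Members and lists were chosen with earlier results of these data known. Replicate libraries differed beyond sampling noise (chi-square per degree of freedom 3.69 to 16.44), so none was counted as a duplicate. Alternatives comprised DESeq2 1.42.0 and its size factors, library totals alone, no filter, a fit of the compared groups alone, a replicate block, the beta chain counts summed, each library left out, and pairs of libraries at either end of the third component left out.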

Additional observations from a re-analysis of the deposited data

How the results depend on the processing

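Over 17 alternatives and the summed beta chain feature, 328 of 360 recomputed fold changes of the members kept their direction and side of the threshold, 8 lost a call, 10 gained one and 14, all uncalled, changed sign. With single libraries left out, the members called numbered 0 to 3 in SA against WT, 0 to 2 in SE against WT and 2 to 3 in SE against SA, and all genes called numbered 297 to 652 in SA against WT, 292 to 1097 in SE against WT and 781 to 1762 in SE against SA. Without WT replicate 2 and SE replicate 3, 903 genes were called in SA against WT and 1215 in SE against WT, and 1 member (Il3ra, 0.26, adjusted p = 0.0182, edgeR) was called in SE against WT. Without WT replicate 1 and SE replicate 2, 372 genes were called in SE against WT, and a fit of those groups alone called 438. The cause of these shifts was not tested. With a replicate block, 1 member stayed called in SA against WT, since Csf2rb2 lost its call (-0.22, adjusted p = 0.0777, edgeR), and no other member changed side; the block called 500 genes in SA against WT, 568 in SE against WT and 1189 in SE against SA. Same-numbered libraries of different groups did not all deviate together (correlations down to -0.195), so the numbers were not taken as pairs. With library totals alone, 473 genes were higher and 925 lower in SE against SA, in place of 644 and 732.

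Signs that turned belonged to small differences. Csf1r in SE against SA was -0.035 with library totals alone, -0.044 without WT replicate 2 and SE replicate 3, and ran from -0.043 to 0.045 with single libraries left out. Csf2ra in SA against WT was -0.018 without WT replicate 1 and SE replicate 2 and ran from -0.028 to 0.23. Csf3r in SA against WT was 0.020 with library totals alone, 0.019 without WT replicate 2 and SE replicate 3, and ran from -0.069 to 0.049. Il3ra in SA against WT was 0.076 without WT replicate 2 and SE replicate 3 and ran from -0.15 to 0.074, and Stat6, not counted above, ran in SA against WT from -0.0073 to 0.040. Csf1 rests on at most 106 reads a library, which limits its precision.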
